A study of Drosophila melanogaster with 3 samples.

Results

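The Rab GTPase genes of Drosophila melanogaster were taken from the Ensembl BDGP6 gene models as the protein-coding genes whose symbol is Rab or RabX followed directly by a number, with or without final letters. The rule gave 33 genes of 13945 protein-coding genes on chromosomes 2L, 2R, 3L, 3R, 4 and X. Rab3-GEF, Rab3GAP1 and Rab3-GAP begin with the same letters but code for regulators of Rab proteins, and they were described with the regulators. The genes were examined in chromatin immunoprecipitation sequencing (ChIP-seq) of Zif (CG10267), a zinc finger DNA-binding protein, in whole embryos of mixed sex, 0 to 24 h of age. The embryos came from a stable transgenic line that expresses Zif with green fluorescent protein (GFP) fused at its C terminus, and the chromatin was precipitated through GFP with an anti-GFP antibody. There was 1 group of 3 biological replicates, all of this 1 line and age. Which promoter drives the transgene, and whether the line keeps its own Zif gene, is not given in the sources used here. A peak was read as occupancy by the tagged protein anywhere in the embryo, and the cell types that carry it cannot be told apart. With 1 group, there was no contrast between conditions and no test. The Rab values were set beside the same values over all protein-coding genes.

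Rab proteins are small GTPases that direct membrane traffic. Each cycles between an inactive form bound to GDP and an active form bound to GTP, carries lipid tails that anchor it to a particular membrane, and when active recruits effectors such as tethers, motors and lipid kinases. Guanine nucleotide exchange factors switch a Rab on, GTPase-activating proteins (GAPs) switch it off, and Rab escort protein and GDP dissociation inhibitor carry it to and from membranes.

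A gene was called bound when a summit of the reproducible peak set (the 8630 peaks kept by the irreproducible discovery rate, IDR) lay within 500 bp of any of its annotated transcription start sites (TSSs). Of the 33 Rab genes, 20 were bound, which was 60.6% (exact 95% binomial interval 42.1 to 77.1%, counting error only), beside 41.0% of all protein-coding genes. Conserved Rab genes, those with a named counterpart in mammals, carried most of these calls, with 18 of 23 bound (78.3%). The fly-specific copies of Rab9 and the RabX genes had 2 of 10 bound (20.0%), and both were RabX genes. With any 1 replicate left out, 1 of these 10 was called. The strongest summits lay at Rab8, Rab23, Rab27 and Rab7, with pooled peak signals from 2600 to 4319, beside a median of 517 over all bound genes.

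The DNA around the 6 strongest Rab summits is shown because these peaks carry the highest occupancy and because the words discussed later recur in them. Each run is the 201 bases centred on the summit in the dm6 build, read 5′ to 3′ on the strand of the Rab gene, from the RefSeq copy of the Release 6 assembly. Capitals mark TATCGATA, the DNA replication-related element (DRE), and the words CAACACT and AACACTG, on either strand. The Rab8 window is chr3L:19870982-19871182 on the minus strand, Rab23 is chr3R:5685670-5685870 on the minus strand and Rab27 is chrX:1476923-1477123 on the minus strand. The Rab7 window is chr3R:23992874-23993074 on the plus strand, Rab21 is chrX:23013315-23013515 on the minus strand and Rab35 is chrX:20159943-20160143 on the minus strand.
Rab8: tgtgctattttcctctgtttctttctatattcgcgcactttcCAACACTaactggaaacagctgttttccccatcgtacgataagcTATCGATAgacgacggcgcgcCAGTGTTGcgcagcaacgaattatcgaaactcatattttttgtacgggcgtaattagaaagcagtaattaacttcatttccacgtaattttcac
Rab23: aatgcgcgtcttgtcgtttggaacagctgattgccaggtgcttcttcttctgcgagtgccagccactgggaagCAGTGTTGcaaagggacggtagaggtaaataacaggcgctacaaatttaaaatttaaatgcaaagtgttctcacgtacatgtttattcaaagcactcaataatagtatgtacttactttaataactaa
Rab27: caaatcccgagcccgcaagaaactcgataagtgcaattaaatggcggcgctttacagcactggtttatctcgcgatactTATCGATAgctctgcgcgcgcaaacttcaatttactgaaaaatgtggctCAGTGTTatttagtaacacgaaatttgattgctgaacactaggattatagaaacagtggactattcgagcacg
Rab7: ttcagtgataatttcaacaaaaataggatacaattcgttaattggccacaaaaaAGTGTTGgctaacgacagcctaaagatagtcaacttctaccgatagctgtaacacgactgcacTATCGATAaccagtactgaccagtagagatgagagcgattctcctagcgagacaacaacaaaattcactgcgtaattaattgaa
Rab21: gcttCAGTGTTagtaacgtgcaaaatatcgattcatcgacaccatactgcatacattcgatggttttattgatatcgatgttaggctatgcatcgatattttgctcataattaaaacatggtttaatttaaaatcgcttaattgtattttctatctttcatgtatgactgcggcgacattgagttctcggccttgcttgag
Rab35: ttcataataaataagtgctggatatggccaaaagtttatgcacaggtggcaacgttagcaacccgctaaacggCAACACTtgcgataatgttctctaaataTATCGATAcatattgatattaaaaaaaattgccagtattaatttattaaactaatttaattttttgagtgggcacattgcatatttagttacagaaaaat
In Rab8 and Rab23 both 7-letter words lie in the overlapping run CAGTGTTG, which holds them on its opposite strand. The DRE lay 11 bp from the Rab8 summit, 4 bp from the Rab35 summit, 18 bp from the Rab27 summit and 21 bp from the Rab7 summit.

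The call was repeated on each replicate by taking its own 8630 strongest peaks. A summit lay at 19 Rab genes in replicate 1 (39.6% of all genes were called), at 20 in replicate 2 (43.7%) and at 18 in replicate 3 (37.8%). The mean over replicates was 57.6% ± 3.03 of Rab genes (SD, n = 3). Of the bound genes, RabX6 was missing in replicates 1 and 3, Rab26 in replicate 2 and Rab14 in replicate 3, and Rab32 was the 1 unbound gene to appear, in replicate 2. The longer relaxed lists of 30000 peaks each placed a summit at 24, 26 and 25 Rab genes in replicates 1, 2 and 3, beside 56.7%, 58.4% and 56.3% of all genes. The relaxed pooled list had 24 Rab genes (56.3% of all genes), and 24 had a relaxed summit in every replicate (50.5% of all genes).

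Peak signal depends on the library, so each replicate's signal was also divided by that replicate's median over the IDR peaks (202.5, 105.5 and 142.1 in replicates 1, 2 and 3), which gives a relative signal of 1 at a typical peak. The bound Rab genes spanned relative means from 0.498 at RabX6 to 10.3 at Rab8. Pooled signals ran from 213 to 4319 with a median of 648. Over all 5723 bound genes the lower quartile, median and upper quartile were 334, 517 and 1052. Of the 20 bound Rab genes, 8 lay over that upper quartile (40.0%) and 3 lay under the lower quartile.

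**Figure D1:**
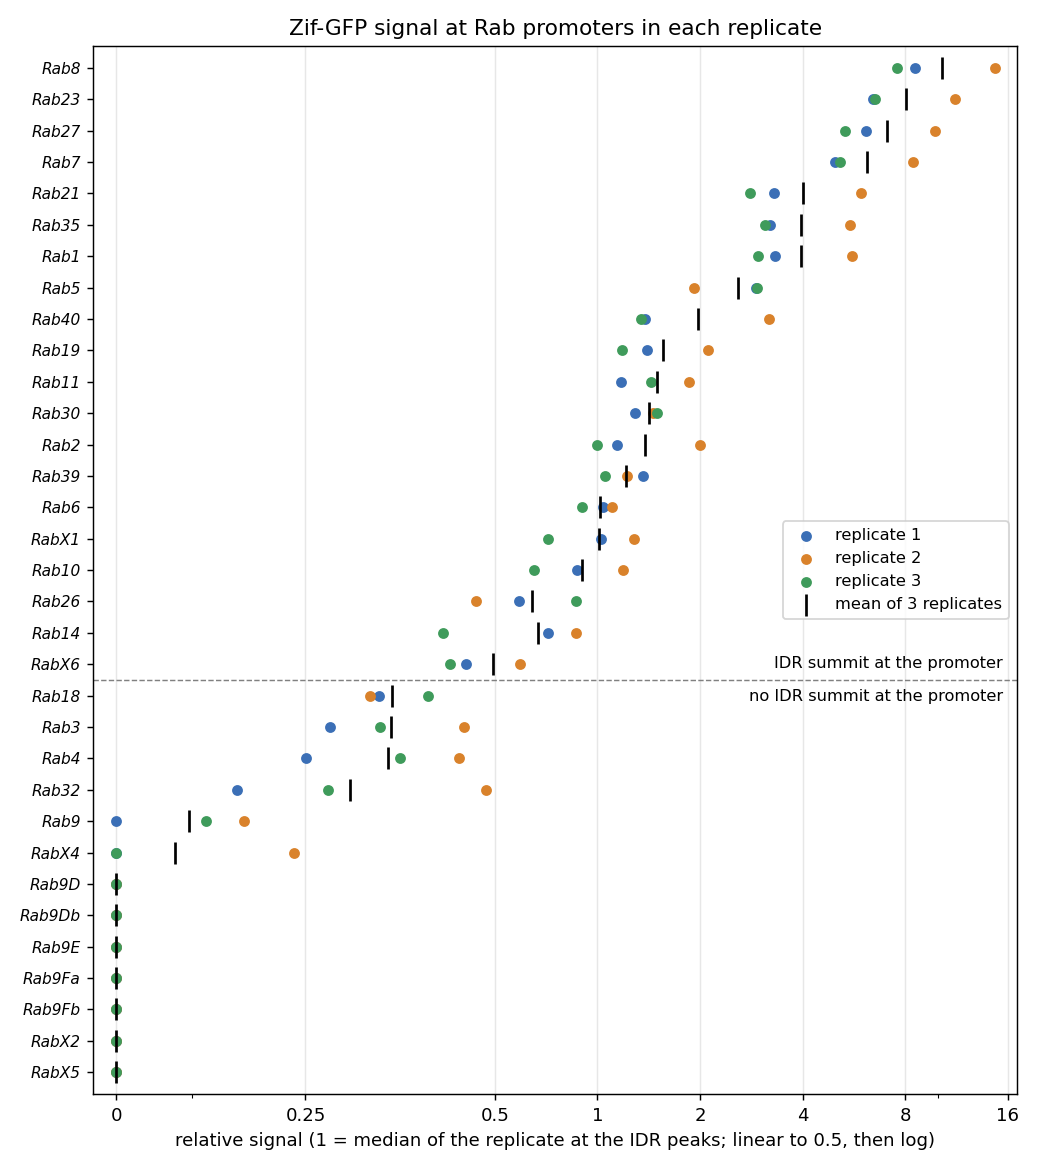
Relative Zif-GFP signal (horizontal axis, linear to 0.5 and logarithmic above) at the 33 Rab genes (rows), with 1 point for each of 3 replicates and a bar for their mean; 0 means that no peak was listed at the promoter. Rab8 reached 14.7 in replicate 2, and 7 genes at the bottom had no listed peak in any replicate.

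Secretory Rab proteins take vesicles to the plasma membrane, and 4 of their 5 genes were bound (80.0%, beside 41.0% of all protein-coding genes). The groups of conserved Rab genes by role hold only 2 to 6 genes each, and their shares were not tested against that of all genes. Rab8, which acts in exocytosis and apical transport, had the strongest summit of the family, rank 38 of 8630. Its peak signals were 1732, 1552 and 1076 in replicates 1, 2 and 3, and its relative signal was 10.3 ± 3.87 (SD, n = 3). All 3 replicates were high, and replicate 2 was the highest on the relative scale. Rab27, which acts in regulated secretion, gave 1241, 1035 and 755, a relative signal of 7.08 ± 2.39. Rab27 was high in every replicate as well, at rank 223. Rab10, needed for polarised secretion of basement membrane in the fly ovary, was much lower at 176, 125 and 92.4 (relative 0.902 ± 0.270), close to a typical IDR peak. Rab26, linked in mammals to secretory granules and synaptic vesicles, gave 119, 50.1 and 123 (relative 0.643 ± 0.202), and replicate 2 was its lowest. Its summit lay at the last of its 3 TSSs, 354 bp upstream. Rab3, the synaptic vesicle Rab, was the unbound member of this group.

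The endosomal Rab genes had 5 of 6 bound (83.3%, beside 41.0% of all genes). Rab21, which acts at early endosomes and in mammals in integrin traffic, gave signals of 669, 627 and 400, a relative signal of 4.02 ± 1.69. Rab35, known in mammals for fast recycling to the plasma membrane, gave 648, 583 and 442, or 3.95 ± 1.37. These neighbouring values differed by less than their spread over replicates. Rab5, which controls fusion of early endosomes, gave 593, 202 and 417 (relative 2.59 ± 0.586). In Rab5 replicate 2 was the lowest, with a relative signal of 1.92 against 2.93 and 2.94 in the others. Rab5 has 6 TSSs. The strongest summit lay 253 bp upstream of an internal TSS, and a weaker summit (signal 359, rank 4980) lay 24 bp downstream of the 5′-most TSS. Rab11, the Rab of the recycling endosome, had 238, 196 and 205 (1.49 ± 0.344). Rab14, which acts between endosomes and the Golgi, had 145, 91.1 and 61.3 (0.670 ± 0.220). Rab14 stood near the bottom of the bound genes, and Rab4, a Rab of rapid recycling, was not bound.

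Late endosomal and lysosomal Rab genes had 2 of 4 bound. Rab7, which drives late endosome and lysosome fusion, gave 1008, 892 and 730, a relative signal of 6.19 ± 1.96. Rab7 was thus strong in every replicate, at rank 317. Rab39, which acts in lysosomal traffic, gave 275, 129 and 149, or 1.21 ± 0.155. Rab9, known in mammals for transport from endosomes to the Golgi, and Rab32, needed for pigment granules in the fly eye, were not bound.

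The endoplasmic reticulum (ER) and Golgi group had 5 of 6 bound (83.3%, beside 41.0% of all genes). Rab1, which acts in transport from the ER to the Golgi, had 674, 588 and 421 in replicates 1, 2 and 3, a relative signal of 3.96 ± 1.42. It was the only member of the group over the upper quartile of all bound genes. Rab19 gave 282, 223 and 168 (1.56 ± 0.487) and Rab30, a Golgi Rab, gave 261, 154 and 212 (1.41 ± 0.108). Rab2, which acts in ER, Golgi and lysosomal traffic, had 232, 210 and 141 (1.38 ± 0.539), and Rab6, a Rab of Golgi transport, had 210, 117 and 128 (1.02 ± 0.103). The replicate ranges of Rab19, Rab30 and Rab2 overlapped. Rab18, a Rab of lipid droplets and the ER in mammals, was not bound.

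The remaining 2 conserved genes were both bound, beside 41.0% of all genes. Rab23, which acts in planar polarity in the fly and in Hedgehog signalling in the mouse, gave 1299, 1183 and 924, a relative signal of 8.05 ± 2.75 at rank 146. Rab40, whose vertebrate proteins serve as adaptors of ubiquitin ligases, gave 279, 336 and 191 (1.97 ± 1.05). Rab40 was the most variable of the bound genes, with an SD of 53.4% of its mean, and it was highest in replicate 2 on both scales. Among the RabX genes, RabX1 had 207, 135 and 102 (1.01 ± 0.284). RabX6 had 93.5, 62.5 and 62.5 (0.498 ± 0.0825) and was the weakest bound member at rank 8319.

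The 13 unbound genes fell into sets by what the relaxed lists held. Rab4, Rab18, Rab3 and Rab32 had a pooled summit within 500 bp of a TSS at signals of 156, 152, 146 and 97.3, under the lowest IDR signal of 204. RabX6, just inside the set, had 213. In replicates 1, 2 and 3, Rab4 had 50.6, 47.8 and 53.2, Rab18 had 70.3, 35.3 and 58.5, and Rab3 had 57.2, 48.4 and 49.4. Rab32 had 32.2, 51.4 and 39.8. These low values were present in every replicate. Rab9 had only weak summits in replicates 2 and 3 (17.8 and 16.9), and RabX4 had 1 in replicate 2 (24.7). Rab9D, Rab9Db, Rab9E, Rab9Fa, Rab9Fb, RabX2 and RabX5 had none in any list, and with no read depth given the limit of detection at these 7 genes is unknown.

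Sequence repeated elsewhere in the genome can keep reads from being placed. Of the 31-base words in the 500 bp either side of each TSS, all 20 bound genes had 100% that occur once in the genome. The unbound genes ranged down to 24.7% at Rab9E, with 29.4% at Rab9Fa, 37.9% at Rab9Db, 55.5% at Rab9D, 67.2% at RabX2 and 94.5% at Rab9Fb. The other 7 unbound genes were over 95%, and RabX5, which had no listed summit either, was at 100%. How reads with several placements were treated is not given in the sources used here, so the part of repeated sequence in the missing calls of the Rab9 copies was not tested.

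Strong peaks could lie close to an unbound Rab gene. The nearest IDR summit to RabX5 was 1344 bp from its TSS, at the promoter of RpL23A, a ribosomal protein gene, with a signal of 4359 (rank 36), above that of Rab8. For Rab4 the nearest summit was 679 bp away at UQCR-6.4 and CG42239, and for Rab18 it was 878 bp away at RpL35. The nearest summits to Rab9E and RabX2 were 32807 and 31512 bp away.

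Most bound Rab genes shared their summit with a neighbour. The strongest summit lay within 500 bp of another protein-coding TSS at 14 of 20 genes (70.0%), beside 57.9% of all bound genes. In all 14 pairs the neighbour lay on the opposite strand and the summit was at or upstream of both TSSs, which were 60 to 436 bp apart. The summit was nearer to the Rab TSS in 10 pairs and nearer to the neighbour in 4. The neighbours were Usp32 (Rab8), plx (Rab23), mei-38 (Rab27), Epp (Rab7), Coa7 (Rab21), CG42258 (Rab40), Caper (Rab30), Mob4 (Rab2), Pdp (Rab39), Phae1 (Rab6), mi (RabX1), CG17068 (Rab10), l(2)34Fd (Rab14) and CG32483 (RabX6). The Rab23 summit was 336 bp upstream of Rab23 and 85 bp upstream of plx, which codes for a protein with the TBC domain of Rab GAPs. It was the 1 Rab summit shared with another gene of the Rab pathway lists. A peak between divergent genes cannot be assigned to either gene.

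**Figure D2:**
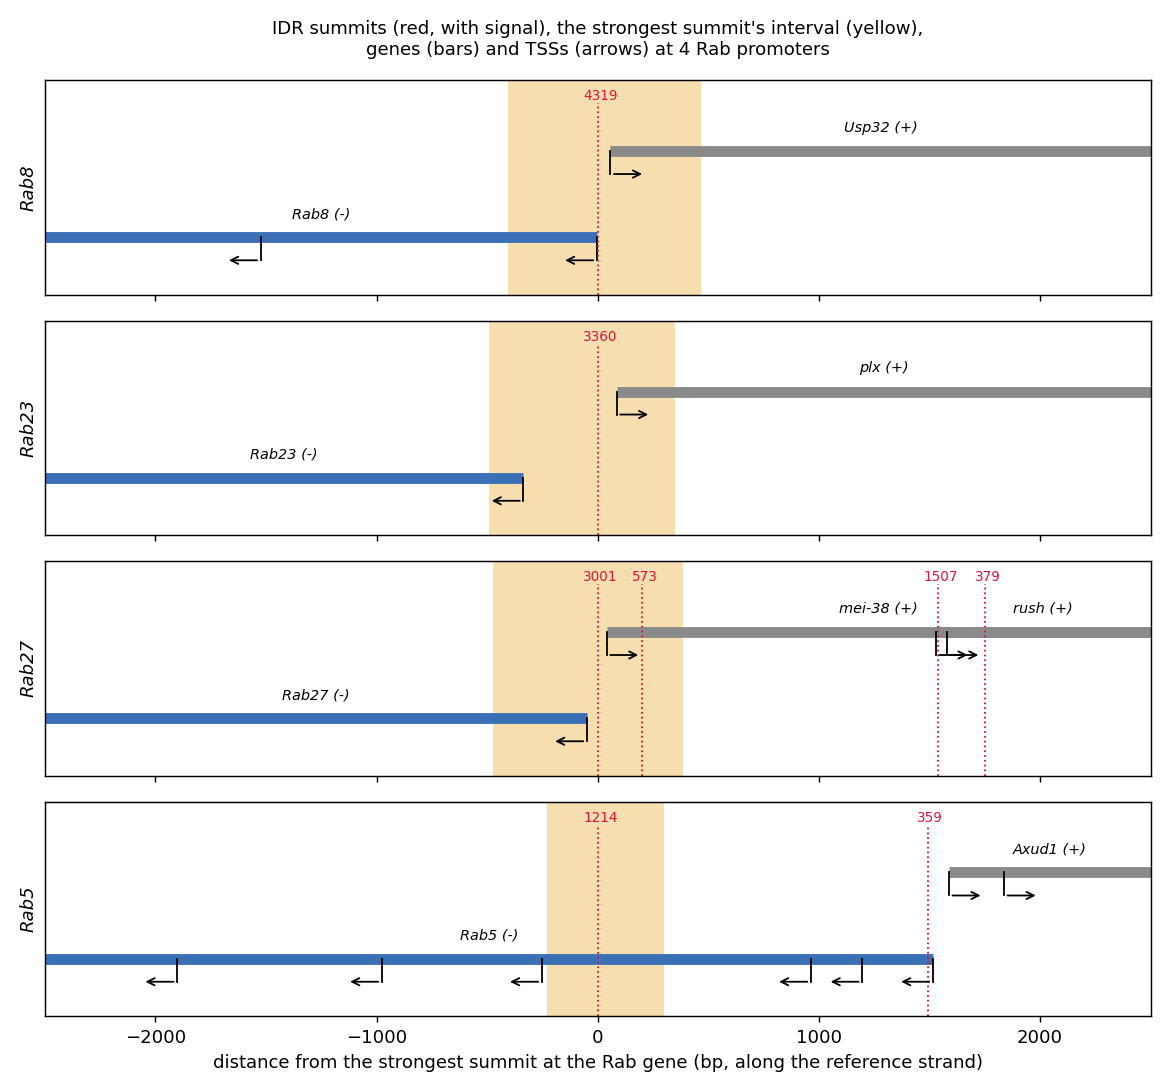
IDR summits (red lines with pooled signal), the interval of the strongest summit (yellow), genes (bars, plus strand above) and TSSs (arrows) around 4 Rab promoters, by distance from the strongest summit in bp. At Rab8, Rab23 and Rab27 the summit sat between divergent genes, whereas at Rab5 it sat inside the gene, with a weaker summit of signal 359 just inside the 5′ end of Rab5, next to Axud1.

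The bound share was therefore set beside neighbourhood. All 15 Rab genes with another coding TSS within 500 bp of one of their own were bound, beside 73.0% of the 4309 genes of that kind. Of the 18 Rab genes with no such neighbour, 5 were bound (27.8%), beside 26.7% of 9636 genes. The share over all Rab genes without a close neighbour was thus close to that of other such genes, but it mixed unlike sets. The 5 bound genes were Rab35, Rab1, Rab19, Rab11 and Rab26, all conserved. The conserved genes without a call were Rab3, Rab4, Rab9, Rab18 and Rab32. The rest were fly-specific Rab9 copies and RabX genes, none of them bound. The 27.8% therefore does not give the share of conserved genes without a close neighbour. Conservation was not scored among the 9636 genes, so no like share can be set beside that of the conserved Rab genes. By number of TSSs, 8 of 9 Rab genes with 2 or more TSS positions were bound (88.9%, beside 57.4% of such genes), while 12 of 24 with 1 position were bound, beside 35.1%. On the X, 6 of 13 were bound (46.2%, beside 42.9%), and on the autosomes 14 of 20 (70.0%, beside 40.7%). All 5 fly-specific Rab9 copies and RabX2 are on the X.

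Summits sat close to the Rab TSSs. The strongest summit was at a median of 50.5 bp upstream (quartiles -138 and -26.2 bp, range -354 to 39 bp, negative upstream), beside -111 bp over all bound genes (quartiles -191 and -44). At 19 of 20 genes the summit was at or upstream of the nearest TSS (95%, beside 90.6%), and 15 of 20 lay within 150 bp (75%, beside 62.9%). Rab19 was the exception, at 39 bp downstream. Rab26, Rab23, Rab39 and Rab5 lay farthest upstream. The Rab23 and Rab39 summits were nearer to the neighbour, at 85 bp upstream of plx and 1 bp upstream of Pdp. A window of 200 bp left Rab26 and Rab23 without a call. Intervals were 182 to 872 bp wide with a median of 504.5 bp, the widest at Rab8 and the narrowest at Rab26. Rab5, Rab27, Rab39, Rab40 and Rab21 had 2 IDR summits each.

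**Figure D3:**
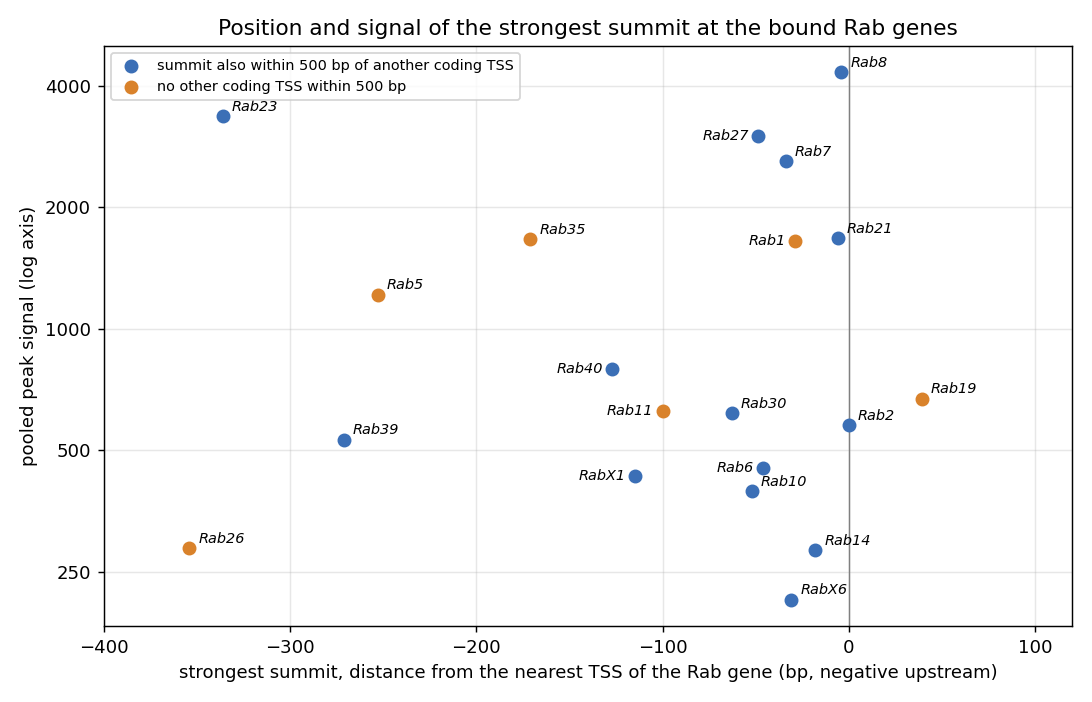
Pooled peak signal (log axis) against the distance of the strongest summit from the nearest TSS in bp for the 20 bound Rab genes; blue points share the summit with another coding gene. The points cluster between the TSS and about 130 bp upstream, and Rab23, Rab35 and Rab5 combine a signal over 1000 with a summit more than 150 bp upstream.

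In 5 Rab genes, IDR summits also lay inside the gene and more than 500 bp from its TSSs, 6 summits in all, each in an intron. That was 15.2% of the 33 genes, beside 9.63% of all protein-coding genes. The intronic summit of Rab23, 2253 bp downstream of the TSS, had 344, 88.9 and 232 in replicates 1, 2 and 3, and that of Rab11, 1871 bp downstream, had 285, 57.4 and 148. Rab9 had a summit 1869 bp downstream with 159, 96.8 and 124, although its promoter was not bound. Rab14 had a summit 586 bp downstream with a pooled signal of 329, above the 283 at its promoter. Rab32, also not bound at its promoter, had 2 intronic summits with pooled signals of 237 and 217, the weaker within 500 bp of the TSS of lncRNA:CR44284.

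The replicates ranked the bound Rab promoters alike and differed in contrast. Across the 20 genes, Spearman's rho of the signals was 0.955 between replicates 1 and 2, 0.956 between 1 and 3 and 0.907 between 2 and 3, a description over genes whose peaks were selected jointly. The relative signal was highest in replicate 2 at 16 of 20 Rab promoters (80.0%), beside 68.3% of all bound genes. Median relative signals of the Rab promoters were 1.37, 1.96 and 1.39 in replicates 1, 2 and 3, beside 1.11, 1.42 and 1.08 over all bound genes. The SD over replicates was 7.62 to 53.4% of the mean, with a median of 31.6%. Rab5 and Rab26 were the 2 genes lowest in replicate 2. Away from the promoters the order turned. Each replicate was divided by its median over all IDR peaks, promoter peaks included. A replicate high at promoters is then set lower elsewhere in part by the scale. Replicate 2 was lowest at 4 of the 6 intronic Rab summits (66.7%), and over the whole set it was lowest at 25.7% of summits within 500 bp of a TSS and at 78.9% of the others. The part of library quality in this was not tested.

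Sequence was examined in the 201 bases around each summit, on both strands, for words known from fly promoters. Each bound Rab gene was represented by its strongest summit alone. The promoter summits set beside it were all IDR summits within 500 bp of a TSS, weaker second summits of a gene included. The DRE, TATCGATA, the site of the promoter factor Dref, was present at 10 of 20 bound Rab genes, beside 11.7% of the 5152 IDR summits within 500 bp of a TSS and 7.84% of windows centred on a TSS of each protein-coding gene. It was present at Rab8, Rab27, Rab7, Rab35, Rab19, Rab30, Rab2, Rab6, Rab14 and RabX6, and at 0 of the 13 unbound genes, whose windows were centred on the TSS. The nearest match was 3 bp from the summit at Rab6 and 59 bp at Rab14, and the others lay between. At summits shared by coding genes, 8 of 14 Rab genes had the DRE (57.1%, beside 13.7% of such summits), and at summits of a single coding gene 2 of 6 had it (33.3%, beside 11.2%). The shorter word CGATA, bound by the insulator factor BEAF-32 and contained in the DRE, was present at 15 of 20 (75%, beside 45.2% of promoter summits and 39.4% of TSS windows). The 10 genes with the DRE are necessarily among these 15, so the count of CGATA in part repeats that of the DRE.

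Other promoter words were at lower counts. TATAAA, the TATA box, was found at Rab11, Rab19, Rab40 and Rab5, 4 of 20, beside 36.0% of promoter summits and 29.2% of TSS windows. CAGCTG, an E-box, was found at Rab19, Rab23, Rab8 and RabX6, beside 13.5% and 13.8%. CACGTG, another E-box, was found at Rab14 and Rab5, beside 2.35% and 2.88%. GGTCACAC, the core of the fly promoter element Motif 1, was found at Rab14 and Rab6, beside 9.12% and 6.76%. GGTATTT, the core of Motif 7, was found at Rab2 and Rab30, beside 9.84% and 7.33%. GAGAGAG, the GAGA factor word, was found at 0 of 20, beside 2.60% and 3.69%.

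CAACACT and AACACTG are the 7-letter words most in excess at the 500 strongest promoter summits, present within 60 bp of 34.8% and 25.6% of them against 0.9% and 0.6% of flanking windows. They were chosen from these peaks after their values were seen, and 4 of the 500 are Rab summits. Within 100 bp of the summit, CAACACT was present at Rab1, Rab23, Rab35, Rab40, Rab7 and Rab8 (30.0%, beside 11.2% of promoter summits and 5.44% of TSS windows), and AACACTG at Rab1, Rab21, Rab23, Rab27, Rab40 and Rab8 (30.0%, beside 8.97% and 5.09%). Of the 8 Rab genes over the upper quartile of signal, 7 had at least 1 of these words (87.5%, beside 38.2% of the 1026 promoter summits over that signal), and Rab5 had neither. Of the 12 below it, 1 had a word, Rab40 (8.33%, beside 7.37% of 4126 summits). Since the words were chosen at strong peaks, their place among the strong Rab genes was set in part by that choice and is a description only. Rab8, Rab27, Rab7 and Rab35 had the DRE and at least 1 of the words, and Rab5, Rab10, Rab11, Rab26, Rab39 and RabX1 had none of the 3. A match is a run of letters and was not read as a binding site.

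The machinery that acts on Rab proteins was counted in 6 lists, 78 genes in all, of which 69 were bound (88.5%, beside 41.0% of all genes). All 4 genes of lipid attachment and membrane cycling were bound. Rep, the Rab escort protein, had peak signals of 664, 576 and 486 in replicates 1, 2 and 3, RabGGTa, a subunit of the enzyme that attaches the lipids, had 231, 89.0 and 155, and RabGGTb, the other subunit, had 146, 97.0 and 88.4. Gdi, the GDP dissociation inhibitor, had a pooled signal of 291. Rep was the strongest of the 4 in every replicate, at a summit shared with Oseg6. Of 22 exchange factors and subunits of TRAPP, the Golgi tether with exchange activity, 19 were bound (86.4%). The strongest were Mon1, part of the Rab7 exchange factor (3819), Rich, an exchange factor for Rab6 (2526), and strat (2263). Their summits were shared with mRpS2, Ddx1 and mtsh. Bet5, CG1116 and Rab3-GEF were not bound.

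Among GAPs, 12 of 13 were bound (92.3%). GAPcenA had a pooled signal of 4064, plx had 3360 at the summit it shares with Rab23, and Rab3GAP1, a subunit of the Rab3 GAP complex, had 2772. GAPcenA shared its summit with CG7182 and Rab3GAP1 with CG14352. The gene wkd was not bound. Endosomal effectors, listed with the CORVET and HOPS tethers and with retromer subunits, had 14 of 15 bound (93.3%). Rbpn-5, a Rab5 effector, led with 2213, followed by Rbsn-5 with 1026 and Vps15, a subunit of the endosomal lipid kinase complex, with 925, and Vps11 was not bound. Rbsn-5 shared its summit with PAPLA1, and Rbpn-5 and Vps15 shared theirs with no gene. This list varied over replicates, with 86.7%, 93.3% and 46.7% of its genes at the strongest peaks of replicates 1, 2 and 3. Exocyst, recycling and secretory effectors had 13 of 15 bound (86.7%). The strongest were didum, the class V myosin (3256), and the exocyst subunits Sec5 (3155) and Sec6 (848). Their summits were shared with dpa, Cog3 and Atg7. Rim and Rph, which act with Rab3 at synapses, were not bound. Golgi effectors and golgins had 7 of 9 bound (77.8%), led by p115 (644), Golgin245 (602) and BicD (589), while GM130 and Golgin84 were not bound. The p115 summit was shared with ND-MNLL and CG45089 and the BicD summit with Sgt. At the strongest peaks of replicates 1, 2 and 3 stood 77.8%, 88.9% and 44.4% of this list, the last near the 37.8% of all genes.

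Other small GTPases, taken as relatives outside the Rab family, had 19 of 25 bound (76%). Mtl, a Rac-like GTPase, had a pooled signal of 4416, Arl5 had 2940 and Arl1 had 1799, the last 2 being Golgi GTPases. Their summits were shared with CG5611, CG13671 and brm. The bound share of the conserved Rab genes (78.3%) was close to that of these relatives. In the main call it was below the 88.5% of the pathway genes, but this order depended on the setting. With the 4315 strongest IDR peaks, 15 of 23 conserved Rab genes were bound, a higher share than the 56.4% of pathway genes. Without replicate 2, 17 of 23 were bound, again above the 67.9% of pathway genes. Under the other settings the conserved share stayed below. At the strongest peaks of replicate 3 the shares were 73.9% and 74.4%. The median pooled signal of bound genes was 732 for conserved Rab genes, 503 for the pathway genes and 579 for the other small GTPases, beside 517 for all bound genes. No test of these differences was made.

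**Figure D4:**
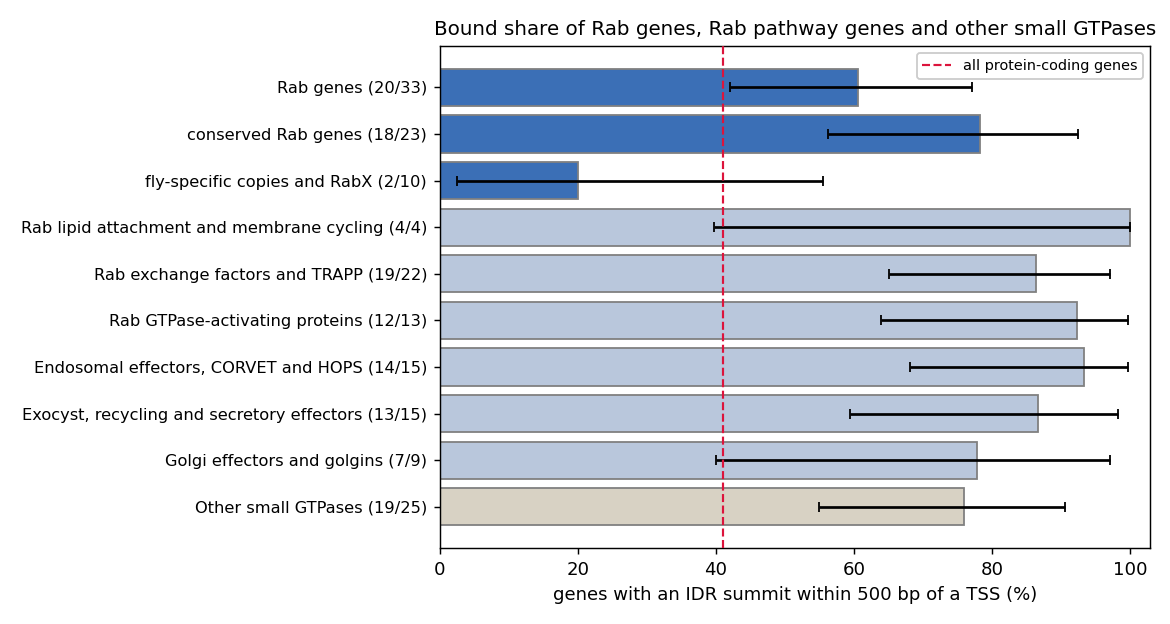
Share of genes that had a TSS at most 500 bp from an IDR summit (%), for Rab genes (dark bars), pathway lists (light bars) and other small GTPases (beige), with exact 95% binomial intervals that cover counting error only; the dashed line is the 41.0% of all protein-coding genes. Conserved Rab genes reached 78.3% and the fly-specific copies and RabX genes 20.0%.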

How the data were processed

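ChIP-seq peak lists of 3 biological replicates of Zif-GFP embryos were analysed, in the dm6 build per the labels. Per the file headers and the deposited documentation, the authors called relaxed lists of 30000 peaks per replicate and for pooled reads, and an IDR set of 8630. The aligner, the peak caller's settings and the treatment of reads with several placements were given in none of the sources used here. The value used is the deposited peak signal, whose scale the authors set, and the deposited −log10 q value reached 4.41 in the IDR set and was used for no call. The documentation derives the pooled list and IDR set from replicates 2 and 3, but the pooled signal was 0.991 times the sum of all 3 replicates (median of 7502 peaks) and 1.82 times that of replicates 2 and 3, so no replicate was treated as independent of the IDR set. Read depth is unknown, and the control library is not analysed here.

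Genes came from Ensembl release 115 (BDGP6) without transposon genes, and sequence from the RefSeq assembly of the same release. Genes with any TSS at most 500 bp from an IDR summit were called bound. A replicate's value at an IDR peak was its strongest overlapping relaxed peak, and at an unbound gene its strongest relaxed summit within 500 bp. Intervals are Clopper-Pearson, 95%. Python 3.11.15, numpy 2.4.6, pandas 2.3.3, scipy 1.17.1 and matplotlib 3.10.9 were used. The promoter call was tested on simulated data and returned 200 of 200 summits placed at genes with a single TSS. That checks the window and distance arithmetic only, not genes with several TSSs or shared summits. All Rab genes were named, and of each list the 3 strongest bound genes and the unbound genes where there were at most 5. Of the 103 genes in the 7 lists, 3 were matched by CG number and the rest by name. The members and lists were chosen with earlier results of these data known. Alternatives were other windows, lists and TSS choices and leaving out each replicate, where a call needed a summit among the 8630 strongest peaks of both others.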

Additional observations from a re-analysis of the deposited data

How the results depend on the processing

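Counts of bound Rab genes are given with the share of all protein-coding genes under the same setting. The main count was 20 (60.6%, beside 41.0%). A window of 200 bp gave 18 (54.5%, beside 33.2%), 1000 bp gave 22 (66.7%, beside 44.6%), the farthest 5′ TSS alone gave 19 (57.6%, beside 39.0%) and overlap of intervals gave 20 (60.6%, beside 42.5%). The 4315 strongest IDR peaks gave 16 (48.5%, beside 26.0%) and the relaxed pooled list gave 24 (72.7%, beside 56.3%). Leaving out each replicate gave 17 to 18, beside 35.0% to 37.5% of all genes, and 1 fly-specific or RabX gene each time. With the 4315 strongest peaks, 1 fly-specific or RabX gene and 44 pathway genes (56.4%) were bound and the median signal of bound Rab genes was 1004, since only stronger peaks were kept. Motif counts moved with the window for CAGCTG (2 within 50 bp), GGTATTT (1 within 50 bp), CACGTG (0 within 50 bp) and TATAAA (7 within 200 bp). In all, 66 recomputed counts and medians stayed within 1.5 times the reported value and 10 did not. Limits are the unknown depth, the joint selection of peaks over replicates and the lack of a control group.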
